A study of Danio rerio with 6 samples.

Results

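The nuclear genes for the respiratory chain and the ATP synthase were followed through 6 transcriptomes of zebrafish embryos exposed to pentachlorophenol (PCP), a chlorinated phenol once used widely as a wood preservative and known as an uncoupler of oxidative phosphorylation. The genes were taken by name alone, that is, all entries whose symbol begins with the stem of a complex I subunit (ndufa, ndufb, ndufc, ndufs or ndufv with a digit), a succinate dehydrogenase subunit (sdha to sdhd), a complex III subunit (uqcr, and cyc1), a cytochrome c oxidase subunit (cox4 to cox8) or an ATP synthase subunit (atp5), without the assembly factors named ndufaf or sdhaf. This gave 60 of the 21228 entries in the table. By their known roles, 22 belonged to complex I, 5 to complex II, 9 to complex III, 11 to complex IV and 12 to complex V, and 1, cox4nb, is an older name of a component of the endoplasmic reticulum membrane protein complex and encodes no mitochondrial subunit. It was kept among the 60, as was atp5s, a mitochondrial coupling factor counted with complex V. The ndufa4 and ndufa4l genes were counted with complex IV, where the mammalian protein is found in spite of its name. Symbols and RefSeq accessions were used as deposited, and no genome coordinates were used.

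From about 1 hpf, Tuebingen embryos stood in medium with the solvent DMSO and either no PCP, 5 μg/l or 200 μg/l, and whole embryos were taken at 10 or 24 hpf. The solvent controls are named 10C and 24C, the libraries at 5 μg/l are 10L and 24L, and those at 200 μg/l are 10H and 24H. For each of these 6 conditions embryos were pooled into 1 library, so there was no replicate check, and each test compares a pair of libraries, not a pair of conditions. Since whole embryos were pooled, fewer cells of a kind and less RNA per cell cannot be told apart.

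The respiratory chain sits in the inner mitochondrial membrane. Complex I takes electrons from NADH and complex II takes them from succinate, ubiquinone carries them to complex III, cytochrome c carries them on to complex IV, and there they reduce oxygen. Complexes I, III and IV pump protons, and the ATP synthase, complex V, makes ATP as the protons flow back through its membrane ring. Most subunits are encoded in the nucleus, while a few in complexes I, III, IV and V come from mitochondrial DNA, and none of the latter were found by name in the table. In zebrafish embryos, heart and skeletal muscle form during the first day and are rich in mitochondria.

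Each value below is a normalized count, the number of reads of a gene times a scaling factor of its library. The libraries held 47409208 to 59864868 reads. A gene was called changed where its fold change (FC) was above 2 or under 0.5 and p was under 0.05, without adjustment, in an exact binomial test (two-sided) of its reads. These are the thresholds of the study. Ranges in parentheses after an FC are 95% Clopper-Pearson intervals, which cover counting error only. Levels were not compared between genes, since transcript lengths were not used.

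The summed normalized count of the 60 entries at 10 hpf was 276863 in the control 10C, 238450 in 10L and 190487 in 10H. At 24 hpf the control 24C had 469658, the low dose 24L had 367699 and the high dose 24H had 236286. The sum thus rose with age in the controls, and in 24H it stood below that of the younger controls. In the order of control, low and high dose, their share of all reads was 0.524%, 0.495% and 0.355% at 10 hpf and 0.926%, 0.70% and 0.458% at 24 hpf. The ratio of the sums in 24H and 24C was 0.503, and by complex it was 0.515 for I, 0.578 for II, 0.576 for III, 0.532 for IV and 0.438 for V.

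In 24H, 25 of the 60 entries fell and none rose, while of all 21217 genes tested 16.9% fell and 12.1% rose. The median log2 FC of the entries was -0.90, against -0.03 over all genes. The entries were also set beside well expressed genes. The mean over the libraries was above 1000 normalized counts in 55 entries. Over the 4015 genes with a mean from the lowest to the highest of these 55, the median log2 FC in 24H was 0.23. Of the 4015 genes 348 (8.67%) fell and 18.4% rose. From 10C to 24C their median log2 FC was -0.66, against 0.69 for the entries, so these sets also differed in their change with age. By complex, 10 of 22 entries fell in complex I (median log2 FC -0.97), 2 of 5 in complex II (-0.81), 2 of 9 in complex III (-0.89), 3 of 11 in complex IV (-0.80) and 8 of 12 in complex V (-1.06). The differences between complexes were not tested. FC was below 1 in 54 of the 60, and the interval lay below 1 in 52. Many values were close to the 2-fold limit. FC was between 0.4 and 0.5 in 14 entries and between 0.5 and 0.6 in another 14, and the intervals of 9 entries included 0.5. The ndufb5 gene (0.499) was just inside the limit, and uqcrc1 and cox6a1 (both 0.504) were just outside. When the exact test of edgeR was given an assumed biological coefficient of variation of 0.4, 6 of the 25 kept the call (cox7a2, cox7c, atp5h, atp5ia, atp5j and atp5l), and 7.2% of all genes were called lower.

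**Figure D1:**
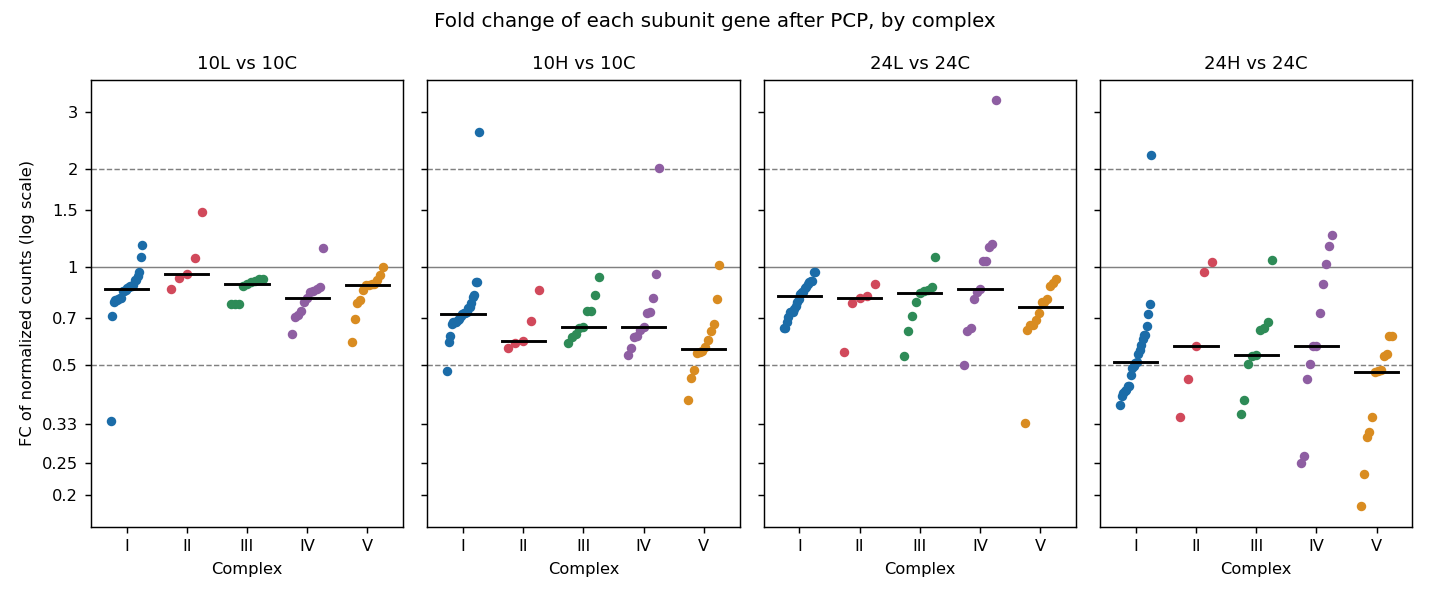
Fold change (log scale) of each gene of complexes I to V in the 4 treated libraries against the control of the same age; each point is 1 gene, black bars are medians, the dashed lines mark 2-fold and cox4nb is not drawn. In 24H most points of every complex lie below 1, with 0.184 for atp5ia of complex V as the lowest, whereas in 10L no gene passed the call.

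Markers of several tissues were lower in the same library. The summed normalized count of 9 skeletal muscle genes was 533859, 350807 and 95055 in 24C, 24L and 24H, and all 9 fell in 24H. At 10 hpf the same sum was only 1124 in 10C and 1208 in 10H. The heart genes, 4 in number, summed to 6705, 5796 and 3837 at 24 hpf (2 of 4 fell in 24H), and myl7, cmlc1 and nppa were at 0 in 10C. In 24H the sum of 8 neuronal genes was 0.217 of that in 24C (7 of 8 fell), that of 8 lens genes 0.0174 (8 of 8), that of 6 blood genes 0.0549 (5 of 6) and that of 5 genes of the yolk syncytial layer 0.783 (4 of 5). The part of these tissues in the lower subunit transcripts of 24H was not tested.

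Complex V, which makes the ATP, held the lowest FC in 24H of all 60 entries. The atp5ia gene encodes a form of subunit e, a small membrane subunit that helps to join the synthase into dimers, and the study also assayed it by qRT-PCR. Its normalized counts were 1123, 660 and 617 in 10C, 10L and 10H and 7135, 2381 and 1316 in 24C, 24L and 24H. Its level in both treated libraries at 24 hpf was thus below 24C, and it fell in 24L (FC 0.334, 0.318–0.35) and in 24H (0.184, 0.174–0.195). The paralog atp5ib had 3654, 3226 and 2449 in 10C, 10L and 10H and 11071, 9732 and 5373 in 24C, 24L and 24H. It fell in 24H (0.485, 0.470–0.501). The log2 FC of atp5ia was lower than that of atp5ib by 1.40 both in 24L (interval of the difference -1.48 to -1.32) and in 24H (-1.49 to -1.30).

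The stalk that holds the catalytic head of the synthase in place was low as well. The atp5j gene (coupling factor F6) had 4906, 3814 and 2677 normalized counts at 10 hpf and 11450, 7617 and 2652 at 24 hpf, again in the order of control, low and high dose, and fell to 0.232 of the control in 24H (0.222–0.241). Its value in 24H was close to that in 10H. The atp5h gene (subunit d) had 3973, 3521 and 1928 at 10 hpf and 11794, 7591 and 3545 at 24 hpf. It fell at 200 μg/l at both ages, with FC 0.485 (0.459–0.513) in 10H and 0.301 (0.290–0.312) in 24H. The atp5l gene, which encodes the membrane subunit g, behaved in the same way, with 4172, 3559 and 1631 at 10 hpf and 8951, 5939 and 2790 at 24 hpf. Its FC was 0.391 (0.369–0.415) in 10H and 0.312 (0.299–0.325) in 24H.

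In atp5f1, subunit b of the same stalk, the younger embryos had the lower FC. It had 8270, 7840 and 3793 normalized counts in 10C, 10L and 10H and 11792, 9205 and 6385 in 24C, 24L and 24H, so it fell in 10H (0.459, 0.441–0.477) while its FC in 24H was 0.541 (0.526–0.558). The oligomycin sensitivity protein atp5o (0.479), the rotor subunit atp5c1 (0.346) and the membrane ring subunit atp5g (0.478) also fell in 24H. The catalytic head subunit atp5a1 was above the limit at 0.536 (0.527–0.545). The highest FC in 24H in complex V were those of atp5s and atp5d. The atp5d gene (subunit delta of the central stalk) had 3855, 3414 and 2130 at 10 hpf and 5221, 4165 and 3206 at 24 hpf, with FC 0.614 in 24H. For atp5s the counts were low throughout, 83.9, 58.4 and 85.1 at 10 hpf and 195, 174 and 120 at 24 hpf, and FC in 24H was 0.615 (0.490–0.772).

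In complex IV, which hands the electrons to oxygen, FC in 24H ran from 0.252 to 1.26. The cox7a2 gene, which encodes a small membrane subunit and was also assayed by qRT-PCR in the study, had 2957, 2571 and 1823 normalized counts in 10C, 10L and 10H and 11600, 7560 and 2918 in 24C, 24L and 24H. Thus 24H was close to 10C, and cox7a2 fell to 0.252 of the control (0.242–0.261). The cox7c gene, another small membrane subunit, had 7161, 4456 and 5185 at 10 hpf and 13725, 6901 and 3608 at 24 hpf. Its lowest library was 24H, where it fell to 0.263 (0.254–0.272), and in 24L it lay on the limit (0.503, 0.488–0.518). When libraries were scaled by their totals, FC in 24L was 0.486 and cox7c was called there too.

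The cox5a pair differed. The cox5ab gene had 2264, 1589 and 1388 at 10 hpf and 4289, 2732 and 1949 at 24 hpf, and fell in 24H (0.454, 0.431–0.479), while cox5aa had 4450, 3725 and 3572 at 10 hpf and 6113, 6381 and 4424 at 24 hpf (FC in 24H 0.724, 0.697–0.752). The log2 FC of cox5aa was higher by 0.67 in 24H (0.58 to 0.76). An entry without a subunit name, LOC100537689, has human COX5A as its deposited BLAST match and fell in 24H (0.470), and reads may be split between such copies.

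Other members of complex IV were not lower in 24H. The cox7a2l gene encodes a protein related to cox7a2 that joins complexes III and IV into a supercomplex. It had 3179, 2329 and 2314 normalized counts at 10 hpf and 2309, 2731 and 2684 at 24 hpf, so that both treated libraries at 24 hpf were above their control (FC in 24H 1.16, 1.10–1.23). The log2 FC of cox7a2 was lower than that of cox7a2l by 2.21 in 24H (interval of the difference -2.30 to -2.11). For ndufa4l the counts in 24C, 24L and 24H were 6074, 6350 and 6217, which differ by little (FC in 24H 1.02, 0.988–1.06).

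The ndufa4 gene was higher, not lower, in 10H, 24L and 24H. It had 111, 127 and 224 normalized counts at 10 hpf and 1464, 4775 and 1846 at 24 hpf. Its level in 10L did not differ from 10C beyond the counting error (1.15, 0.885–1.49). It rose in 24L (3.26, 3.07–3.47) and in 10H (2.01, 1.59–2.57), though not in 10H when the libraries were scaled by their totals (FC 1.98), and its FC in 24H was 1.26 (1.18–1.35). Between the ages it rose 13.2-fold in the controls, 37.5-fold at 5 μg/l and 8.24-fold at 200 μg/l. Since ndufa4 and ndufa4l are related in sequence, the division of reads between them is uncertain.

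**Figure D2:**
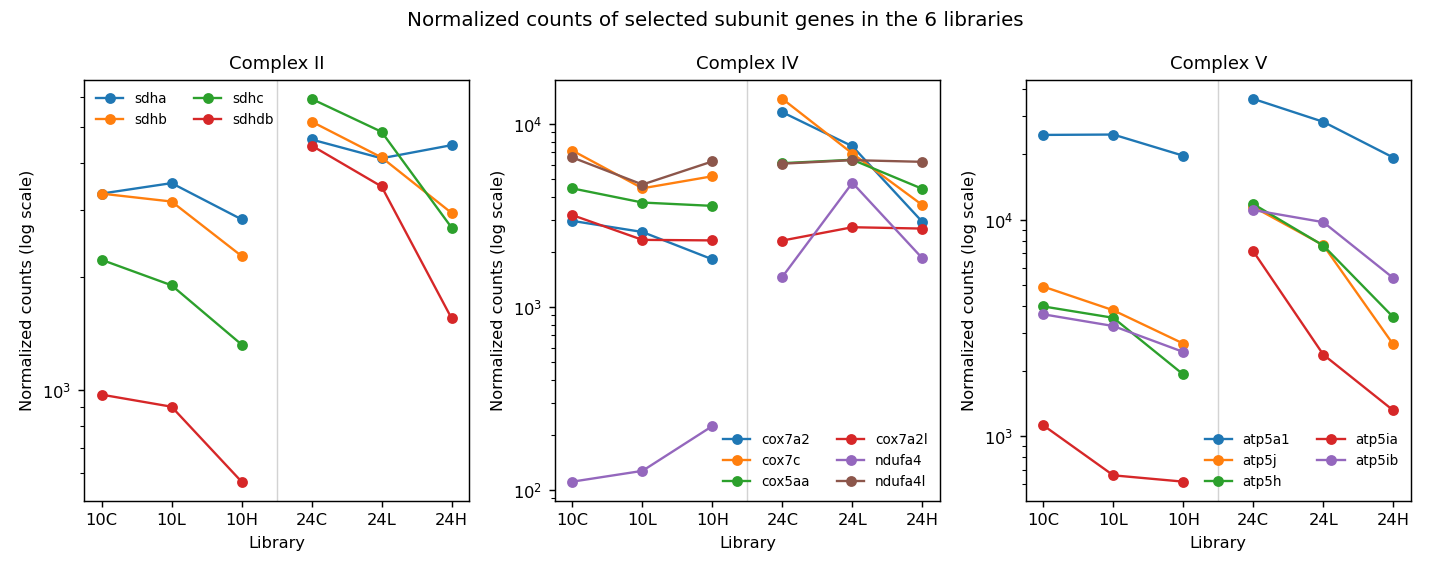
Normalized counts (log scale, a separate axis for each panel) of selected genes of complexes II, IV and V in the 6 libraries; each point is 1 library, lines join libraries of 1 age and there is no error bar because each group is 1 library. The cox7a2, cox7c, atp5j, atp5h and atp5ia genes decline from 24C over 24L to 24H, ndufa4 is highest in 24L (4775), and sdha and ndufa4l in 24H are near 24C.

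In complex I, the entry point of electrons from NADH, FC in 24H was below 1 in 21 of 22 entries. The lowest was that of ndufb10, an accessory subunit of the membrane arm. It had 1279, 1169 and 614 normalized counts in 10C, 10L and 10H and 5339, 3759 and 2013 in 24C, 24L and 24H. It fell at 200 μg/l at both ages, with 0.480 (0.434–0.530) in 10H and 0.377 (0.359–0.396) in 24H. The ndufb6 gene, of the same arm, had 2469, 1751 and 1460 at 10 hpf and 3959, 3289 and 1589 at 24 hpf, and fell in 24H (0.401, 0.379–0.425). Of the 9 accessory subunits of the membrane arm 5 fell, and of the 6 of the peripheral arm 3 fell (ndufs4, ndufs6 and ndufa12). The assignment to arms follows the mammalian complex.

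Of the 7 entries for core subunits of the peripheral arm, which carry the flavin and iron-sulfur clusters, 2 (28.6%) fell (ndufs7 and ndufs8a). Of all genes 16.9% fell. The median log2 FC of the 7 was -0.73, and ndufs3 (0.511) was just outside the limit. The flavin-binding ndufv1 (0.619) and ndufs1 (0.618), the largest iron-sulfur subunit, did not pass the limit. The ndufs8a gene, which encodes an iron-sulfur subunit near the ubiquinone site, had 4388, 3529 and 3302 normalized counts at 10 hpf and 8263, 5387 and 3406 at 24 hpf and fell in 24H (0.412, 0.397–0.428). Its paralog ndufs8b was nearly silent, with 10.5, 3.54 and 27.3 at 10 hpf and 4.28, 4.12 and 9.48 at 24 hpf. It passed the call as higher in 10H (2.60, 1.22–6.05) on 10 reads in 10C and 26 in 10H, and in 24H its interval was too wide to give a direction (2.22, 0.656–9.54). The highest FC among well measured members were those of ndufv3 and ndufa9. The ndufv3 gene, a small accessory subunit of the peripheral arm, had 682, 599 and 530 at 10 hpf and 1014, 984 and 782 at 24 hpf (0.771, 0.703–0.845), and ndufa9, an accessory subunit near the ubiquinone site, had 2861, 2691 and 1982 and then 4143, 3603 and 2977 (0.718, 0.686–0.752).

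Complex II, which is also the succinate dehydrogenase of the citric acid cycle and is encoded in the nucleus entirely, differed among its subunits. The catalytic flavoprotein sdha had 3324, 3544 and 2839 normalized counts in 10C, 10L and 10H and 4629, 4126 and 4471 in 24C, 24L and 24H. Its level in 24H differed from 24C by less than the counting error (FC 0.966, 0.928–1.01). The iron-sulfur subunit sdhb had 3323, 3166 and 2268 at 10 hpf and 5166, 4148 and 2952 at 24 hpf, with FC 0.572 (0.547–0.597) in 24H.

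The membrane anchors sdhc and sdhdb were lower. The sdhc gene had 2216, 1896 and 1319 at 10 hpf and 5936, 4852 and 2700 at 24 hpf and fell in 24H (0.455, 0.435–0.475). The sdhdb gene had 971, 901 and 570 at 10 hpf and 4461, 3472 and 1549 at 24 hpf and fell to 0.347 (0.328–0.367). Its paralog sdhda had 16.8, 24.8 and 9.46 at 10 hpf and 15.0, 8.25 and 15.5 at 24 hpf, too few reads to give a direction in 24H (1.04, 0.487–2.25).

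In complex III the genes with the highest FC in 24H were cyc1 and uqcrfs1. Cytochrome c1 (cyc1), which hands electrons to cytochrome c, had 10251, 9269 and 9555 normalized counts in 10C, 10L and 10H and 8138, 8766 and 8539 in 24C, 24L and 24H. It was thus slightly above the control in both treated libraries at 24 hpf (24H 1.05, 1.02–1.08). The Rieske iron-sulfur protein uqcrfs1 had 2392, 2201 and 1568 at 10 hpf and 1837, 1594 and 1247 at 24 hpf (0.679, 0.633–0.729). These genes were also the only members of the complex that were lower in 24C than in 10C.

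The members of complex III that fell were small subunits. The uqcrq gene had 3928, 3036 and 2300 at 10 hpf and 8336, 4448 and 2963 at 24 hpf and fell in 24H (0.355, 0.341–0.370), and uqcr11 had 4005, 3514 and 2940 and then 6944, 4439 and 2711 (0.390, 0.374–0.407). The core protein uqcrc1 had 5842, 5395 and 3641 at 10 hpf and 11022, 7837 and 5552 at 24 hpf, just outside the limit (0.504, 0.488–0.520).

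At 24 hpf and 5 μg/l the entries differed less from the control. In 24L, 1 of 60 fell (atp5ia) and 1 rose (ndufa4), while 4.48% of all genes fell and 3.57% rose. The median log2 FC was -0.32, against -0.01 over all genes, and FC was below 1 in 54 entries. The comparisons of 24L and 24H share the library 24C. The lowest FC in 24L after atp5ia were those of cox7c (0.503) and uqcrq (0.534).

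At 10 hpf, when somites are about to form, no entry passed the call in 10L, where 2.81% of all genes fell and 3.96% rose. The median log2 FC there was -0.22, against 0.00 over all genes. In 10H, 4 entries fell (ndufb10, atp5f1, atp5h and atp5l) and 2 rose (ndufs8b and ndufa4). These are 6.67% and 3.33% of the entries, against 6.33% and 7.09% of all genes. The median log2 FC in 10H was -0.56, against 0.00 over all genes, and FC was below 1 in 57 of the 60, but by less than 2-fold in most. With the edgeR test at a coefficient of 0.4 none of the 6 kept the call, while 1.72% of all genes were called lower and 1.56% higher. By complex the median log2 FC in 10H ran from -0.47 in complex I and -0.61 in III and IV to -0.75 in II and -0.84 in V.

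The libraries of the ages share no reads, so the changes at 200 μg/l could be set against each other. The log2 FC in 24H minus that in 10H had a median of -0.37 over the 60 entries. It lay below 0 beyond its counting interval in 45 entries and above 0 in 8. For cox7c the difference was -1.46 (-1.53 to -1.39), for atp5ia -1.58 (-1.74 to -1.41), and for cox7a2 -1.29 (-1.40 to -1.19). Among the 8 entries above 0 beyond the interval, the largest differences were those of cox7a2l with 0.68 (0.56 to 0.79) and cox4i2 with 0.65 (0.28 to 1.02). The cox4i2 gene encodes a second form of subunit 4 of complex IV. Next came atp5f1 with 0.24 (0.17 to 0.31). There is no spread between pools to judge these differences by.

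Between 10 and 24 hpf the controls had gained in these transcripts. Of the 60 entries 21 (35.0%) rose from 10C to 24C, a share near the 29.1% of all genes that rose. None fell, against 18.2% of all genes. The median log2 FC was 0.69, against 0.03 over all genes and -0.66 over the 4015 well expressed genes. Complex V led with 9 of 12 entries called and a median of 1.21, and complex III had the lowest median with 0.30. At 5 μg/l, 15 entries (25.0%) rose from 10L to 24L and 1, sdhda, fell, with a median of 0.57. Of all genes 28.0% rose and 16.1% fell, so the share of entries that rose was below that of all genes. At 200 μg/l, 8 (13.3%) rose from 10H to 24H and 1, ndufs8b, fell, with a median of 0.37. Here 26.6% of all genes rose and 19.4% fell. The 8 were ndufb10, sdhc, sdhdb, uqcrc2a, ndufa4, atp5o, atp5ia and atp5ib. In 42 entries the level in 24H was even below that of 10C. The library with the highest level was 24C for 50 entries.

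**Figure D3:**
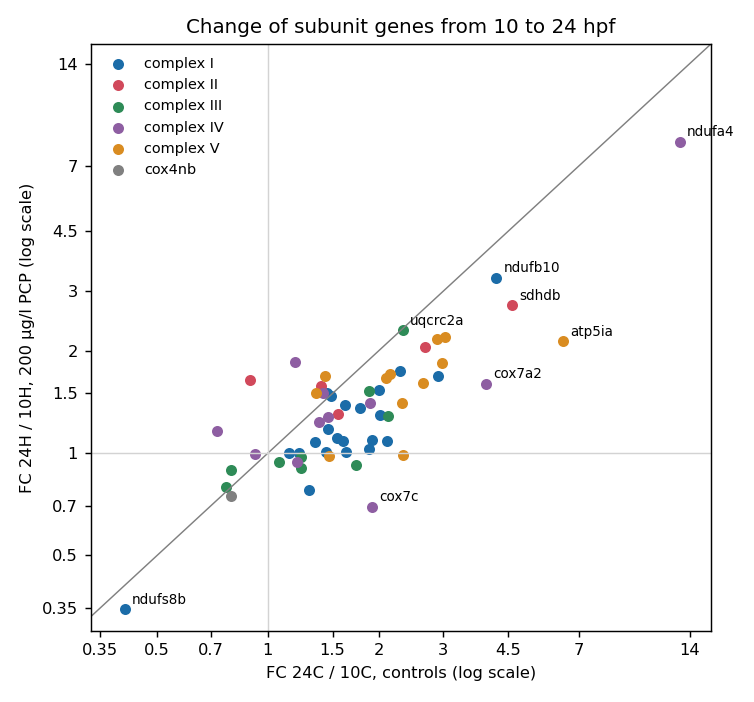
Fold change from 10 to 24 hpf of each of the 60 entries in controls (24C over 10C, horizontal, log scale) against embryos in 200 μg/l PCP (24H over 10H, vertical, log scale); each point is 1 gene and the diagonal marks equal change. Of the 60 points 49 lie below the diagonal, with cox7c, atp5ia and cox7a2 far below it and uqcrc2a on it.

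Groups of genes with tasks close to the chain were followed beside it. The proteins that assemble the complexes numbered 18, of which 5 (27.8%) fell in 24H, against 16.9% of all genes, and their median log2 FC was -0.47. The lowest were cox11 (0.413) and cox17 (0.428), which serve copper delivery to complex IV. Of 11 genes for electron carriers, that is, cytochrome c, ubiquinone synthesis and the electron transfer flavoprotein, 4 (36.4%) fell and the median was -0.87. The pdss2 gene (0.391), whose enzyme builds the ubiquinone tail, and coq9 (0.402) were lowest. Cytochrome c itself (cycsb) had 8608 normalized counts in 24C and 4709 in 24H (0.547, 0.528–0.566). In 10H 3 of the 11 electron carrier genes (27.3%) fell, against 6.33% of all genes, and their median log2 FC was -0.76.

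The enzymes of the citric acid cycle and pyruvate dehydrogenase stood nearer to the control. Of 18 genes 1, sucla2 (0.451), fell in 24H, which is 5.56% against 16.9% of all genes, and the median was -0.34. Of 40 proteins of the mitochondrial ribosome 5 (12.5%) fell, a share below that of all genes, with mrps14 (0.375) and mrpl14 (0.393) lowest, and the median was -0.47. Of 11 genes for carriers of ATP, phosphate or protons, with the ATP synthase inhibitor atpif1 among them, 4 (36.4%) fell. The largest fall was that of slc25a4, an ATP/ADP carrier of muscle in mammals, from 5045 in 24C to 1334 in 24L and 19.8 in 24H. The carrier slc25a5 did not follow it, with 88491 in 24C and 115495 in 24H (1.31, 1.29–1.32), and reads of these near copies may be split. The ucp2 gene, an uncoupling protein homolog, fell from 10074 to 2295 (0.228).

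The list of transcription regulators mixed factors that act on nuclear genes with factors that act in mitochondria. It also took in the mitochondrial DNA polymerase polg. Some of its genes rose. Of 16 genes 3 (18.8%) rose in 24H, where 12.1% of all genes rose, and none fell, and the median log2 FC was 0.48. The coactivator pprc1, a relative of PGC-1, had 917 normalized counts in 24C, 1535 in 24L and 3061 in 24H (3.34, 3.10–3.60). The ppargc1b gene, PGC-1 beta, had 224, 409 and 688 in the same libraries (3.08, 2.64–3.60), and ppargc1al, which matched ppargc1a through the table of names, reached 2.52. The pprc1 gene had been far higher at 10 hpf, with 11256 in 10C.

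The rule by name missed some subunits. Entries without a subunit name whose deposited human match is a subunit numbered 16, ndufab1 included. Of these 7 (43.8%) fell in 24H, against 16.9% of all genes, and the median log2 FC was -0.73. The lowest were LOC402883 (human match ATP5J2, 0.271) and LOC100000992 (NDUFC1, 0.271), and ndufab1, the acyl carrier protein of complex I, fell to 0.385. This list, and that of the cytosolic ribosome, were added after the data had been seen.

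Genes named for proteins of the cytosolic ribosome were taken as another large group of highly expressed housekeeping genes. The match by name also took in rps19bp1 and rpl7l1, which do not encode parts of the ribosome. In 10H none of the 71 genes of this group passed the call, but FC was below 1 in all 71. The median log2 FC was -0.52, near the -0.56 of the respiratory chain and ATP synthase entries. In 24H 2 of 71 fell and the median was -0.21, against -0.90 for those entries. From 10C to 24C the median of the cytosolic ribosome was 0.81.

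**Figure D4:**
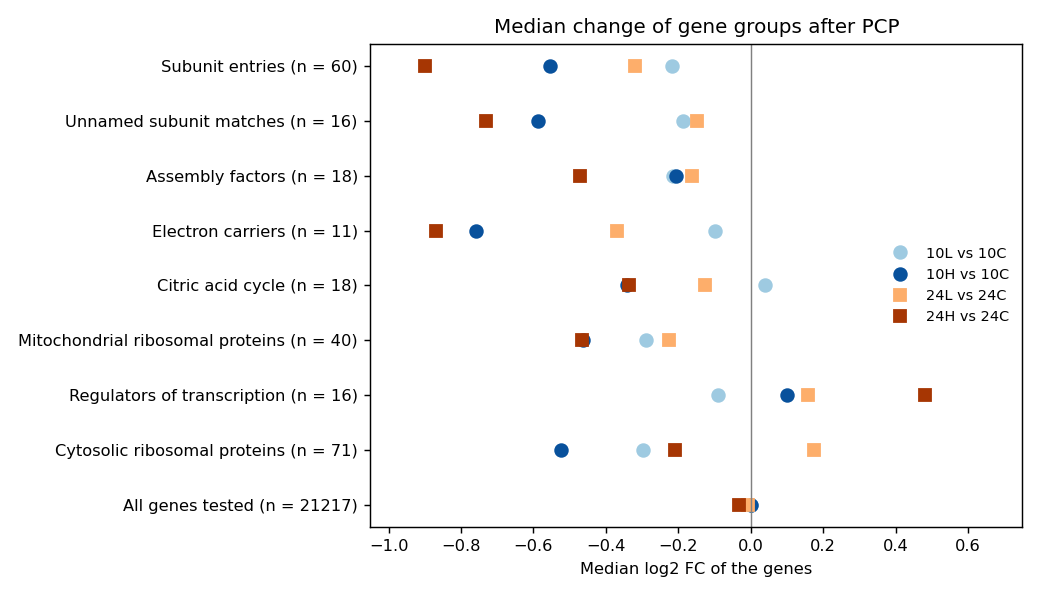
Median log2 FC (horizontal) of groups of genes in the 4 treated libraries against the control of the same age; circles are 10 hpf, squares are 24 hpf, darker symbols are 200 μg/l, and n is the number of genes. In 24H the subunit entries have the lowest median (-0.90) of the groups drawn and the regulators of transcription the highest (0.48). In 10H the electron carriers (-0.76) are lowest, and the cytosolic ribosomal proteins (-0.52) lie near the subunit entries (-0.56).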

How the data were processed

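RNA of pooled whole embryos was sequenced on an Illumina instrument, 1 library for each of 6 conditions. Per the study's methods, the authors aligned reads with Tophat, added human annotation by BLAST and applied TMM scaling in edgeR, so the deposited signal is a normalized count per gene and library. The labels give the assemblies Zv9 and hg19, the methods a later zebrafish assembly, and the sources used here do not give the counting program. In every library 100% of the values were whole multiples of 1 step (0.862 to 1.07; tolerance 0.001 reads), which gave the reads. A further 11 entries that merge transcripts named by clone, with 13.9% to 15.5% of the reads, may hide subunits and were left out, which left 21217 genes.

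Pairs of libraries were compared with the binomial test described above in scipy 1.17.1 (Python 3.11.15, numpy 2.4.6, pandas 2.3.3), tried first on simulated libraries. DEGseq, the test of the study, was not used here. Medians are of log2 FC with 1 added to both normalized counts. Paralogs and ages were compared by differences of log2 FC with normal intervals from the reads.

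The members and lists were chosen with earlier results of these data known. Of the single symbols of the lists 106 matched directly, another 15 by way of the symbols in a RefSeq table, and 53 did not match. Roles were assigned from general knowledge. Values in all 6 libraries are given for complex II, for the 3 lowest and 2 highest FC in 24H of the other complexes (at least 50 reads in the higher library), for members called in 10L, 10H or 24L, for paralogs of which 1 fell in 24H and the other did not, and for the genes assayed by qRT-PCR. From other lists the 2 lowest and 2 highest called members are named, with the same minimum, and a few more were named after their values had been seen.

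Settings varied were the scaling (library totals, or size factors from medians of ratios), a minimum of 10 reads, an added constant of 10, Benjamini-Hochberg adjusted p, a 1.5-fold limit, and edgeR 4.0.16 (R 4.3.3), whose exact test was given a biological coefficient of variation of 0.2 or 0.4. After the data had been seen, counts were also taken without cox4nb, cox7a2l and atp5s, and with the unnamed entries that match a human subunit.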

Additional observations from a re-analysis of the deposited data

Results flagged for a closer look

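Genes were singled out where FC lay on opposite sides of 1 at the 2 ages, beyond its counting interval at both. The value given is log2 FC at 24 hpf minus that at 10 hpf. With 1 library per group, the difference was not tested against variation between pools, and none of these genes passed the 2-fold call at either age.

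At 5 μg/l, 3 genes for redox subunits were above the control at 10 hpf and below it at 24 hpf. The difference was -0.5735 for ndufv1 (FC 1.17 in 10L, 0.784 in 24L), -0.4294 for ndufs1 (1.07, 0.797) and -0.2582 for sdha (1.07, 0.891). The first of these bind the flavin and iron-sulfur clusters of complex I, and sdha holds the flavin of complex II. The opposite order was found for cyc1 with 0.2526 (0.904 in 10L, 1.08 in 24L), cox5aa with 0.3184 (0.837, 1.04), ndufa4l with 0.5549 (0.712, 1.05) and cox7a2l with 0.6906 (0.733, 1.18). All flags were taken at the main scaling, and those with an FC near 1 may depend on it. With library totals the FC of cyc1 in 10L was 0.9905, close to 1, while sdha had 1.168 in 10L and 0.8608 in 24L. The other flagged genes were not followed under that scaling.

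At 200 μg/l, cyc1 with 0.1708 (0.932 in 10H, 1.05 in 24H) and cox7a2l with 0.6756 (0.728, 1.16) were again below the control at 10 hpf and above it at 24 hpf. The control libraries are the same for both doses.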

How the results depend on the processing

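No paired analysis was possible because each condition was a single library. A count was taken as moved where it changed by more than 1.5 times and a median where it left the range between the median lower and the median upper bound of the genes' counting intervals, which was so for 24 of the main counts and medians under the alternatives and not for 144. Scaling by median-of-ratios, a minimum of 10 reads, the added constant and adjusted p moved none by this measure, and the same 25 genes were lower in 24H under all 3 scalings. With library totals the median log2 FC was -0.0868 in 10L and 0.444 from 10L to 24L, 1 entry was higher in 10H and 2 lower in 24L. Smaller shifts with library totals were 27 lower in 24H, 22 higher from 10C to 24C and 12 higher from 10L to 24L. In 10H ndufa4 lost the call (1.981), and in 24L cox7c gained it (0.4855).

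The assumed variation decided many calls. With edgeR's exact test at a coefficient of 0.2, 1 entry was higher in 10H, against 5.9% of all genes. At 0.4, 6 were lower in 24H, 0 were lower in 10H, 24L and the comparisons of 24L with 10L and of 24H with 10H, and 0 were higher in 10H, while 5 were higher from 10C to 24C, 4 from 10L to 24L and 2 from 10H to 24H. With a 1.5-fold limit 2 and 25 entries were lower in 10L and 10H, and 11 and 47 were lower in 24L and 24H. At the same limit 33, 29 and 23 were higher with age in controls, at 5 and at 200 μg/l. The share of all genes at the 1.5-fold limit was not counted. Adding the unnamed entries with a human subunit match gave 4 higher in 10H, 2 higher in 24L and 2 lower in 24L. Without cox4nb, cox7a2l and atp5s, 20 were higher from 10C to 24C and 14 from 10L to 24L, 25 were lower in 24H, and the median log2 FC there was -0.97. Depth limits ndufs8b and sdhda, whose intervals span 1 in 24H. Without replicates, no interval covers variation between pools of embryos.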
